A study of Mus musculus with 4 samples.

Results

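Dntt, Satb1, Lax1, Notch1, Ccr9, Ighm and Mzb1 are transcripts that mark or accompany the first steps of blood progenitors toward the lymphocyte lineages, and they were chosen by symbol for that role. They are 7 of the 32285 genes counted in each library. The study profiled RNA and surface proteins together (CITE-seq, 10x Genomics 3' chemistry version 3.1) in single mouse bone marrow cells sorted for the receptor Kit and for CD45.2, an allele commonly used to tell donor from host cells, 10 weeks after transplantation. There were 4 groups with 1 library each, named control, Mll3SI, Mll4SI and Mll3/4SI, and values below are listed in that order. The last 3 names refer to changes in the genes of the histone methyltransferases MLL3 and MLL4, made singly or together. What SI stands for, the alleles, the age of the animals and the number of donors or recipients are not given in the sources used here. All 4 groups share the transplantation and the CD45.2+Kit+ sort, a sort that selects against cells without Kit. Each library carried a pair of hashtag antibodies whose meaning the labels do not state.

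In the bone marrow, multipotent progenitors that express the cytokine receptor Flt3 begin to transcribe lymphocyte genes at low levels before they lose myeloid potential, a step known as lymphoid priming. Dntt is among the earliest of these transcripts, and the heavy-chain locus is transcribed in germline form before it is rearranged. Satb1 is a chromatin organiser known to favour lymphoid output of stem cells, Notch1 directs progenitors to the T lineage in the thymus, Ccr9 guides them there, and Lax1 and Mzb1 act later in antigen-receptor signalling and antibody assembly.

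With 1 library per group there is no replicate check and no test of any difference between groups. Levels are unique molecular identifiers (UMIs) summed over the cells of a class, per 1000000 UMIs of those cells (CPM). Ratios are log2 of the CPM in a library over the CPM in control. Intervals are exact 95% Poisson or Clopper-Pearson intervals and cover counting error only, not the spread between animals or between cells. A gene was counted as past 2-fold when the log2 ratio, with 1 CPM added to both levels, was at least 1 in size. Genes were tested in a class when their mean over the 4 libraries was at least 1 CPM, so a gene could be tested on the libraries where it was high.

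After filtering, 31707 cells remained, between 6743 and 10186 per library, with median depths of 12800 to 19185 UMIs per cell. Pairs of libraries shared 16 to 29 cell barcodes. The cells formed 27 clusters, numbered from 0 by size, and 8 classes were named from marker genes that did not include the 7 genes. Clusters 5 and 16 made up the class of cells like hematopoietic stem cells and multipotent progenitors (HSC/MPP-like), with 843 control, 892 Mll3SI, 663 Mll4SI and 292 Mll3/4SI cells. Cluster 5 had Flt3 among its 10 leading genes, while cluster 16 was led by stem-cell and megakaryocyte genes such as Mecom and Pf4. No cluster had enough markers to be named lymphoid-primed. In all, 5 clusters drew over 95% of their cells from 1 library and were kept apart from the classes: cluster 0 from Mll4SI, and clusters 12, 14, 19 and 23 from Mll3/4SI. Xist was at 0.0315 and 0.194 CPM in control and Mll3SI and at 1148 and 1360 CPM in Mll4SI and Mll3/4SI, and the Y-linked Eif2s3y was detected only in the first pair, so sex and genotype cannot be told apart for Mll4SI and Mll3/4SI.

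All 7 genes were matched to the GRCm38 annotation by their Ensembl identifiers. Dntt (ENSMUSG00000025014) lies on chr19:41029275-41059525 and Lax1 (ENSMUSG00000051998) on chr1:133679091-133690108, and neither overlaps another annotated gene. Satb1 (ENSMUSG00000023927) spans chr17:51736187-51833290 and overlaps no other gene that was counted. Notch1 (ENSMUSG00000026923) spans chr2:26457903-26516663 and overlaps the opposite-strand transcripts 0610009E02Rik and Gm13568. Ccr9 (ENSMUSG00000029530) has a long annotated span, chr9:123678439-123784330, that overlaps Slc6a20a and Lztfl1 on the opposite strand and Gm17200 on its own. Whether counting used the strand is not given in the sources used here, so reads of Notch1 and Ccr9 may not be separable from those of their neighbours. Ighm (ENSMUSG00000076617) is annotated as the constant segment alone, chr12:113418558-113422730, and its 3' counts do not tell germline from rearranged transcripts.

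The 250 bases before the start were read for 3 genes from RefSeq promoter windows on GRCm38.p6: Dntt and Lax1, whose levels in HSC/MPP-like cells were lower in Mll4SI, and Satb1, whose level in those cells was close to control. The windows are chr19:41029025-41029274 on the plus strand for Dntt, chr1:133690109-133690358 on the minus strand for Lax1 and chr17:51833291-51833540 on the minus strand for Satb1. They are written 5′ to 3′ on the strand of the gene. Capitals mark matches, on either strand, to 4 short motifs of lymphoid regulators: the E-box CANNTG bound by E proteins, TGGGAA shared by Ikaros and the Notch partner RBPJ, GAGGAA of PU.1-type ETS factors and TGTGGT of Runx factors.
Dntt: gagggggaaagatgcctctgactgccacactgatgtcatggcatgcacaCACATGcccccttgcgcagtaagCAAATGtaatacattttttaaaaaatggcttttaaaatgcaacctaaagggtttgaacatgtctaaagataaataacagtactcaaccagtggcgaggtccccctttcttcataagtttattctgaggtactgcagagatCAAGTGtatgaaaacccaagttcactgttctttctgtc
Lax1: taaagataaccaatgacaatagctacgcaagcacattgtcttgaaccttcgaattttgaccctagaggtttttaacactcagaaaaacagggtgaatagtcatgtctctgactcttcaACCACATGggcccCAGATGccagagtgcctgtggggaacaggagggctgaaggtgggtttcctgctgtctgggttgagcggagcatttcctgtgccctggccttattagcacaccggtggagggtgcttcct
Satb1: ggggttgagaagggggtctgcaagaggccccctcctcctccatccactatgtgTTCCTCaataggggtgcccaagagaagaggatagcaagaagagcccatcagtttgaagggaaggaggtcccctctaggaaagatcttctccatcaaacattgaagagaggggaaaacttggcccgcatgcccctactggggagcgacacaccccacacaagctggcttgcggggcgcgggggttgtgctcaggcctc
The Dntt window held 3 E-boxes, starting at -201, -178 and -38 from the start, and none of the other motifs. The Lax1 window held E-boxes at -130 and -119 and a Runx core on the other strand at -132, whose last bases overlap the first of the E-boxes. The Satb1 window held a single ETS core on the other strand at -197 and no E-box. Among 32851 windows of the same length, 66.22% held an E-box, 21.59% TGGGAA, 23.25% GAGGAA and 14.05% TGTGGT, so these matches are common letters and a description only.

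Dntt encodes terminal deoxynucleotidyl transferase, which adds bases to the joints of rearranging antigen-receptor genes. Its level was highest in the B-lymphoid-like class, at 907, 1141, 779 and 922 CPM, from 72, 183, 42 and 37 cells. HSC/MPP-like cells came next, at 80.2, 91.5, 36.0 and 130 CPM, lowest in Mll4SI. Monocyte-like cells followed at 7.33, 12.9, 2.31 and 7.28 CPM. The ranges of these 3 classes did not overlap across libraries. In the granulocyte-like, basophil/mast-like and erythroid-like classes every library was at or below 1.43 CPM, and those 3 classes could not be ordered. T/NK-like and dendritic-like cells held at most 1 Dntt UMI per library. The granulocyte-like cells held 41, 101, 12 and 12 Dntt UMIs beside 30, 90, 6 and 10 of Mzb1, while the B-lymphoid-like cells held 1098, 2745, 516 and 572 beside 1015, 2292, 310 and 523. The part of free RNA from B-lymphoid cells in the low granulocyte values was not tested.

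**Figure D1:**
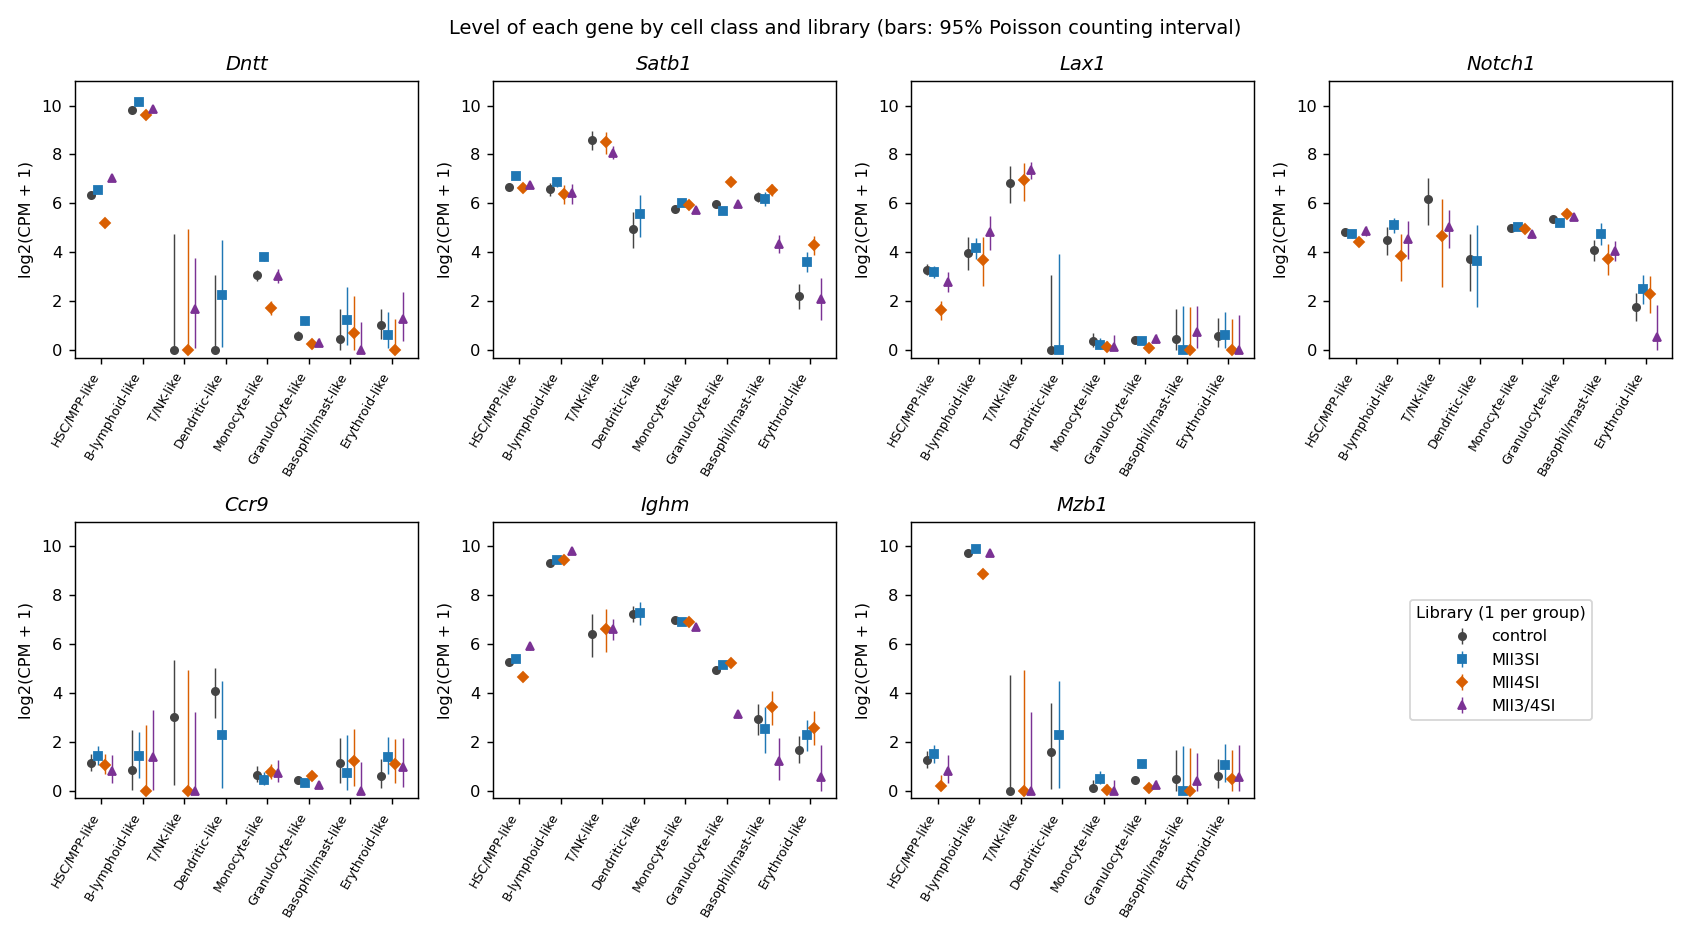
Level of each of the 7 genes as log2(CPM + 1) in each cell class of at least 20 cells, 1 point per library, with bars for the 95% Poisson counting interval. Dntt and Mzb1 are high in B-lymphoid-like cells (907 and 838 CPM in control), Satb1 and Lax1 are highest in T/NK-like cells, and Ighm in granulocyte-like cells is low in Mll3/4SI (7.76 CPM against 29.9 in control).

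Within HSC/MPP-like cells Dntt was lower in Mll4SI than in control (log2 ratio -1.15, interval -1.31 to -1.0005, from 461 and 1366 UMIs). It was higher in Mll3/4SI (0.70, 0.57 to 0.82) and near control in Mll3SI (0.19, 0.08 to 0.30). With 1 CPM added, the Mll3/4SI value of 0.69 turned to -1.22 with classes taken from the nearest control cells and to -0.81 with library-specific clusters counted in, so its direction rests on the cells placed in the class. Of the 7 genes, 3 were past 2-fold lower in Mll4SI, Dntt, Lax1 and Mzb1, where 1.31% of the 12746 genes tested were past 2-fold lower. Mzb1 was tested here only through its levels in control and Mll3SI, so its place in the count is no support for a lower level in Mll4SI. No member was past 2-fold in Mll3SI or in Mll3/4SI, where 0.761% and 1.58% of the genes were past 2-fold in either direction. The Mll4SI count of 3 was 0 with 10 CPM added in place of 1, and 1 at Leiden resolution 2 or among genes of at least 10 CPM. The median log2 ratio of the 7 genes was 0.19, -0.62 and 0.05 in the 3 comparisons, beside 0.00, -0.01 and -0.05 over all genes tested.

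The lower Dntt level of Mll4SI was seen in cluster 5, the Flt3-rich progenitors. There Dntt stood at 124, 139, 46.3 and 200 CPM, and the log2 ratios were 0.17, -1.42 (-1.60 to -1.24) and 0.69 (0.57 to 0.82). In cluster 16, the stem-like cells, the levels were 17.4, 19.6, 22.5 and 3.01 CPM. The Mll4SI level there came from 124 UMIs, 48 of them in 1 cell, so its side of control rests on few cells. The low value in cluster 16 was that of Mll3/4SI (-2.53, -3.87 to -1.44), and it rested on 7 UMIs against 121 in control. In cluster 5 the counts of members past 2-fold were 0, 3 and 0 in the 3 comparisons, where 0.953%, 1.78% (lower only) and 2.35% of 12695 genes were past 2-fold. In cluster 16 of Mll3/4SI, Dntt was the single gene past 2-fold lower of 5 members tested, with 2.15% of 12580 genes past 2-fold lower.

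In monocyte-like cells, Dntt in Mll4SI was 54 UMIs against 152 (-1.67, -2.14 to -1.21), the single gene past 2-fold lower of 4 members tested, where 0.792% of 11872 genes were. On the scale with 1 CPM added the value was -1.33. It was -0.37 at Leiden resolution 2, -0.39 without doublet removal and -0.60 in Hashtag1 cells, and it turned to 0.0048 at resolution 0.5 and 0.16 with a stricter cell filter, so the call ended in each of these.

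Few cells carried most of the Dntt transcripts. In cluster 5, the tenth of cells richest in Dntt held 92.8%, 93.9%, 93.5% and 85.4% of its UMIs, and 1 control cell held 135. Cells with at least 10 Dntt UMIs made up 6.10%, 6.15%, 3.07% and 12.3% of the cluster, from 33, 35, 13 and 25 cells. After every cell was thinned to 3000 UMIs, so that depth was equal, a Dntt UMI was seen in 11.5% of control cells (interval 8.97% to 14.6%), 12.01% of Mll3SI cells, 8.13% of Mll4SI cells (5.70% to 11.2%) and 16.4% of Mll3/4SI cells (11.6% to 22.3%). The intervals of Mll4SI and Mll3/4SI, which leave out the spread between animals, did not overlap, and each overlapped that of control. The mean number of UMIs in those Dntt-positive cells was 3.44, 3.29, 2.18 and 3.70, again lowest in Mll4SI. Erythroid-like cells, a class that should lack the transcript, held a Dntt UMI in 0 of 273, 1 of 229, 0 of 126 and 0 of 79 thinned cells, and 0 of 273 allows a share of up to 1.34%.

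The pair of hashtags within each library gave a measure of spread inside a library. In cluster 5 the Dntt level of Hashtag1 and Hashtag2 cells was 100 and 153 CPM for control, 219 and 50.2 for Mll3SI, 38.0 and 56.9 for Mll4SI, and 184 and 188 for Mll3/4SI. Both values of Mll4SI were below both of control, and both of Mll3/4SI were above. The values of Mll3SI lay on either side of control, and its Hashtag2 cells fell within the Mll4SI range, so the split inside that library was wider than the differences between whole libraries. Whether the hashtags mark different animals was not tested.

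**Figure D2:**
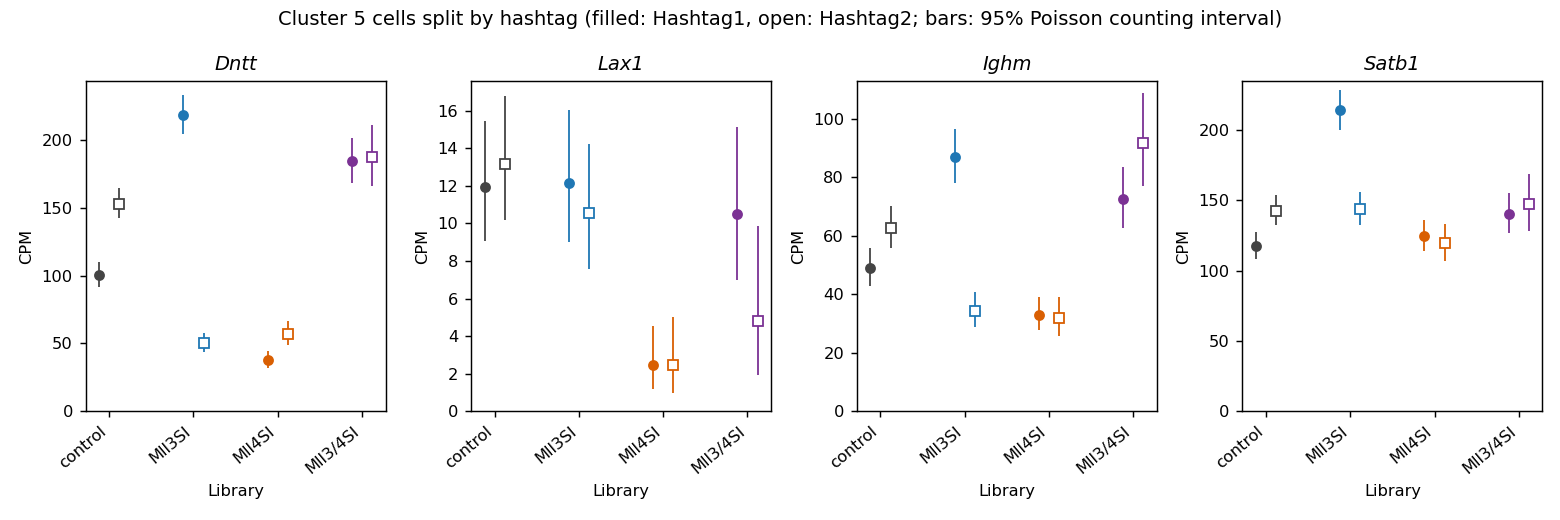
Levels in CPM of Dntt, Lax1, Ighm and Satb1 in cluster 5 cells of each library, split into Hashtag1 (filled) and Hashtag2 (open) cells, with 95% Poisson counting intervals. Dntt in Mll3SI splits into 219 and 50.2 CPM, whereas Lax1 in Mll4SI is 2.47 and 2.44 CPM against 11.9 and 13.2 in control.

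Lax1 encodes a transmembrane adaptor that dampens signalling from lymphocyte antigen receptors. Its level was highest in T/NK-like cells, at 113, 84.5, 122 and 162 CPM, from 25, 11, 22 and 47 cells. B-lymphoid-like cells followed at 14.9, 17.0, 12.1 and 27.4 CPM and HSC/MPP-like cells at 8.86, 8.20, 2.11 and 5.96 CPM. In the monocyte-like, granulocyte-like, basophil/mast-like and erythroid-like classes every library was at or below 0.684 CPM, and dendritic-like cells held 0 Lax1 UMIs.

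Among HSC/MPP-like cells Lax1 was lowest in Mll4SI, with 27 UMIs against 151 in control (log2 ratio -2.07, -2.72 to -1.47). The ratio was -0.11 (-0.48 to 0.25) in Mll3SI and -0.57 (-1.12 to -0.06) in Mll3/4SI. In cluster 5 it stood at 12.5, 11.5, 2.33 and 8.29 CPM, and the Mll4SI ratio was -2.42 (-3.25 to -1.69). The hashtag pairs in that cluster were 2.47 and 2.44 CPM in Mll4SI against 11.9 and 13.2 in control and 12.2 and 10.5 in Mll3SI. The Mll3/4SI pair was 10.5 and 4.79 CPM, and the interval of the lower value (1.93 to 9.88) overlapped those of Mll4SI. The share of thinned HSC/MPP-like cells with a Lax1 UMI was 3.58% (2.43% to 5.07%), 2.59%, 0.761% (0.248% to 1.77%) and 2.76%. The intervals of Mll4SI and control, which leave out the spread between animals, did not overlap. In B-lymphoid-like cells the same ratio was -0.30 (-1.71 to 0.97) on 8 UMIs against 18, a difference not detectable at this depth.

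Markers of other cells moved with the Mll4SI values. In HSC/MPP-like cells the summed level of the 14 granulocyte markers was 4673, 4701, 8338 and 4505 CPM, with all 14 detected in each. Among them the neutrophil granule gene Camp stood at 332, 460, 2177 and 280 CPM. The high Camp level of Mll4SI was not particular to these cells. It was at 197, 265, 1657 and 165 CPM in monocyte-like cells and 838, 213, 2018 and 1133.5 CPM in B-lymphoid-like cells. In HSC/MPP-like cells Flt3 itself was 117, 109, 68.7 and 128 CPM. The 9 lymphoid-primed markers, Flt3 among them, summed to 1060.5, 1078, 929.5 and 1066.8 CPM, with 9, 9, 7 and 9 of them detected. This sum was not particular to progenitors, at 909, 743, 1550 and 1142 CPM in granulocyte-like cells. Single markers went different ways in HSC/MPP-like cells, with Il7r at 5.93, 9.41, 1.64 and 8.40 CPM and Rag2 at 1.64, 3.07, 2.89 and 3.82 CPM. The 12 B-lymphoid markers summed to 37.9, 54.3, 23.2 and 34.2 CPM. HSC/MPP markers were near equal, at 3638, 3916, 3830 and 3530 CPM. The part of these shifts in the Dntt and Lax1 values was not tested. Among HSC/MPP-like cells with a Flt3 UMI, the counts of members past 2-fold were 1, 2 and 0 in the 3 comparisons, where 1.05%, 3.54% and 2.64% of 12668 genes were past 2-fold in either direction.

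**Figure D3:**
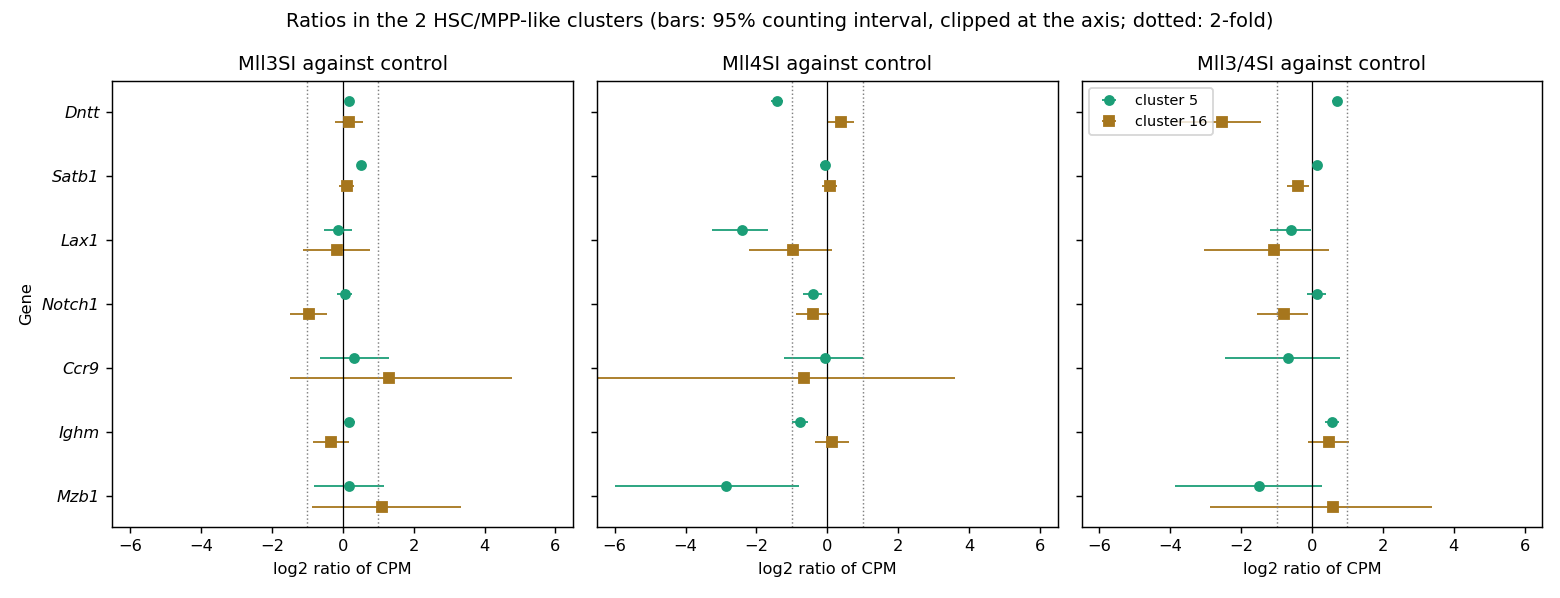
Log2 ratio of CPM of each gene against control in cluster 5 (circles) and cluster 16 (squares), 1 panel per library, with 95% counting intervals clipped at the axis limits and dotted lines at 2-fold. In Mll4SI, Dntt and Lax1 in cluster 5 lie at -1.42 and -2.42, while in cluster 16 Dntt lies at 0.37 in Mll4SI and at -2.53 in Mll3/4SI. The value of 0.37 rests on 124 Mll4SI UMIs, 48 of them in 1 cell.

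Ighm encodes the constant region of the mu heavy chain of IgM. Its level was highest in B-lymphoid-like cells, at 641, 698, 695 and 892 CPM. With 1 CPM added, the ratios in that class were 0.12, 0.12 and 0.48, and without doublet removal -0.81, -2.10 and 0.65. Dendritic-like cells (151, 154, 143 and 278 CPM, from 37, 24, 16 and 14 cells) and monocyte-like cells (125, 118, 118 and 103 CPM) followed without overlap between those ranges. T/NK-like cells stood at 84.8, 70.5, 97.9 and 96.8 CPM, on 12, 5, 12 and 43 UMIs. HSC/MPP-like cells held 37.7, 41.5, 24.2 and 59.0 CPM and granulocyte-like cells 29.9, 34.3, 36.1 and 7.76 CPM, and these 2 ranges overlapped. Basophil/mast-like and erythroid-like cells were lowest, with 1.37 to 9.83 and 0.476 to 5.04 CPM.

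In HSC/MPP-like cells Ighm was placed as Dntt was: lower in Mll4SI (-0.64, -0.84 to -0.45), higher in Mll3/4SI (0.64, 0.46 to 0.83) and near control in Mll3SI (0.14, -0.03 to 0.30). None of these ratios was past 2-fold. The Mll3/4SI value turned to -0.96 with classes of nearest control cells and to -0.72 with library-specific clusters counted in. In cluster 5 the hashtag pairs were 49.0 and 62.6, 86.9 and 34.4, 33.0 and 31.8, and 72.7 and 91.8 CPM, so Mll4SI lay below both control values and Mll3/4SI above both. The Mll3SI values again lay on either side of control.

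In granulocyte-like cells the Mll3/4SI library stood apart in the other direction. There Ighm was at 7.76 CPM against 29.9 in control (-1.94, -2.10 to -1.79), and it was the single gene past 2-fold of the 3 members tested, where 0.528% of 11561 genes were past 2-fold lower. The hashtag pair gave 6.95 and 8.92 CPM in Mll3/4SI and 30.035 and 30.2 in control. Different clusters held most of this class in the libraries, with 1050 of the 2516 Mll3/4SI cells in cluster 13, which had 9 control cells. In the 9 granulocyte-like clusters with at least 20 cells in both libraries, Ighm was lower in 8 and past 2-fold lower in 7, with log2 ratios from -4.15 to 0.05. In the 2 monocyte-like clusters the Mll3/4SI ratios were -0.30 and -0.22. The share of thinned granulocyte-like cells with an Ighm UMI was 9.14%, 10.5%, 10.2% and 1.94%, beside 1 of 273, 4 of 229, 0 of 126 and 0 of 79 erythroid-like cells. Basophil/mast-like cells showed the same side, with 4 UMIs in Mll3/4SI against 17 (-2.30, -4.33 to -0.68). In the clusters found almost only in Mll3/4SI, Ighm stood at 8.65, 2.92, 3.76 and 9.42 CPM (clusters 12, 14, 19 and 23). They held too few control cells for a ratio.

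**Figure D4:**
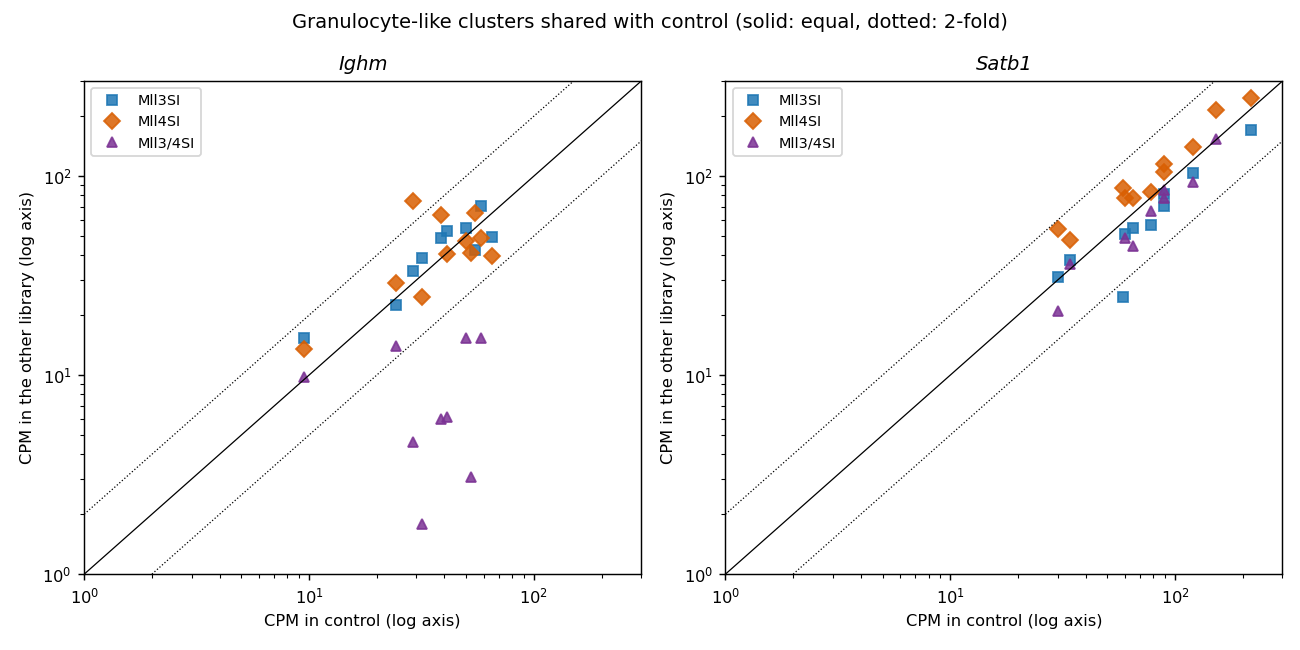
CPM of Ighm and Satb1 in each granulocyte-like cluster shared with control, with control on the horizontal and the other library on the vertical log axis, a solid line at equality and dotted lines at 2-fold. For Ighm, 7 of the 9 Mll3/4SI points lie below the lower dotted line, and for Satb1 all 11 Mll4SI points lie above the solid line.

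Satb1 organises chromatin loops at lymphocyte genes. Its level was highest in T/NK-like cells (382, 197, 359 and 268 CPM). HSC/MPP-like cells stood at 102, 137, 97.9 and 108 CPM, B-lymphoid-like at 94.98, 115, 81.6 and 83.8, granulocyte-like at 62.5, 50.5, 115 and 61.4, and monocyte-like at 53.5, 63.5, 59.7 and 52.7 CPM, so each of these ranges overlapped the next. Basophil/mast-like cells held 75.2, 71.5, 93.1 and 19.5 CPM, and dendritic-like cells 30.2, 46.2, 94.2 and 4.79 CPM, on 15, 12, 23 and 1 UMIs. Erythroid-like cells held 3.60, 11.3, 18.6 and 3.33 CPM.

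In HSC/MPP-like cells the Satb1 ratio was 0.43 for Mll3SI (0.33 to 0.52), -0.05 for Mll4SI (-0.16 to 0.05) and 0.09 for Mll3/4SI (-0.04 to 0.21). The Mll4SI interval lay within 2-fold of control, unlike those of Dntt and Lax1 in the same cells. The Mll3SI excess lay in Hashtag1 cells of cluster 5, at 214 CPM, while its Hashtag2 cells were at 144 CPM, beside 118 and 143 in control. In thinned HSC/MPP-like cells the share with a Satb1 UMI was 21.2%, 27.3%, 23.6% and 22.4%, while without thinning it was 53.0%, 52.5%, 55.8% and 54.1%.

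Outside the progenitors Satb1 followed the library in other ways. In granulocyte-like cells it was higher in Mll4SI (0.88, 0.83 to 0.94), in all 11 shared clusters, with ratios from 0.08 to 0.85 and none past 2-fold. The interval left out 0 in 6 of these clusters. The class ratio was above that of every shared cluster, and the libraries filled the clusters unequally, with 1659 Mll4SI and 50 control cells in cluster 4. The part of this mix in the class ratio was not tested. The hashtag pair was 122 and 108 CPM in Mll4SI and 63.5 and 60.8 in control. Erythroid-like cells held 48 Satb1 UMIs in Mll4SI against 21 in control (2.37, 1.60 to 3.19), and 41 in Mll3SI (1.65, 0.86 to 2.49). In Mll3/4SI, Satb1 was lower in basophil/mast-like cells, at 19.5 CPM against 75.2 in control (-1.95, -2.40 to -1.51). The clusters drawn almost wholly from that library held it at 2.69 CPM (cluster 12), 3.29 (cluster 14), 0.9398 (cluster 19) and 8.72 (cluster 23), in 1213, 1096, 618 and 301 Mll3/4SI cells. Those clusters held Notch1 at 21.0, 25.2, 3.99 and 29.7 CPM. Cluster 19 carried HSC/MPP and mast-cell markers, and with it counted among HSC/MPP-like cells, 3 members were past 2-fold in Mll3/4SI in place of 0, where 5.40% of 12785 genes were past 2-fold in place of 1.58%.

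Notch1 encodes the receptor that commits thymus-seeding progenitors to the T lineage. In most classes the ranges overlapped, at 39.9, 35.5, 45.9 and 42.1 CPM in granulocyte-like, 31.3, 32.3, 30.3 and 26.0 in monocyte-like and 27.6, 25.6, 20.4 and 28.6 in HSC/MPP-like cells, with 12.5 to 26.1 CPM in basophil/mast-like and 13.6 to 33.7 in B-lymphoid-like cells. Erythroid-like cells held 0.476 to 4.69 CPM, below every class but the dendritic-like cells (12.1, 11.6, 24.6 and 0 CPM, on 0 to 6 UMIs). The T/NK-like values of 70.7, 70.5, 24.5 and 31.5 CPM rested on 3 to 14 UMIs. In HSC/MPP-like cells Notch1 was lower in Mll4SI (-0.44, -0.66 to -0.22) and close to control in Mll3SI (-0.11, -0.31 to 0.09) and Mll3/4SI (0.05, -0.20 to 0.29). The thinned share with a UMI there was 8.59% (6.78% to 10.7%), 7.09%, 3.65% (2.35% to 5.39%) and 7.93%, again lowest in Mll4SI. The size of that drop depended on the depth setting. As a log2 ratio to control the Mll4SI share was -1.23 here, but between -0.64 and -0.30 under the 4 other settings, -0.30 without thinning. In cluster 5 both hashtag values of Mll4SI, 26.1 and 28.3 CPM, lay below both of control, 32.9 and 39.9. Their counting intervals overlapped, at 22.45 to 35.1 for Mll4SI Hashtag2 and 28.0 to 38.5 for control Hashtag1 cells. The Mll3SI pair of 45.3 and 28.1 reached from above the control pair into the Mll4SI range. In cluster 16, Notch1 was lower than control in all 3 other libraries (-0.96, -0.41 and -0.79), and the Mll4SI interval, -0.87 to 0.05, reached 0.

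Ccr9, the receptor for the thymic chemokine CCL25, was near the limit of detection. HSC/MPP-like cells held 21, 24, 14 and 5 UMIs, or 1.23, 1.71, 1.09 and 0.764 CPM, and every interval against control included 0. A Ccr9 UMI was seen in 3 of 838, 4 of 889, 2 of 657 and 2 of 290 thinned cells. Its highest level was in dendritic-like cells, at 16.1, 3.85, 24.6 and 33.5 CPM on 8, 1, 6 and 7 UMIs. A difference between libraries was not detectable at this depth.

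Mzb1 encodes a chaperone of the endoplasmic reticulum that assists IgM assembly and secretion (ENSMUSG00000024353, chr18:35647267-35649367). It was almost confined to B-lymphoid-like cells, which held 838, 953, 468 and 843 CPM. The Mll4SI ratio in that class was -0.84 (-1.03 to -0.66), short of 2-fold, and its hashtag pair of 326 and 659 CPM lay below the control pair of 795 and 1041. In this class no member was past 2-fold in any library, where 7.56%, 16.6% and 16.9% of 12164 genes were past 2-fold in either direction, in 37 to 183 cells per library. In HSC/MPP-like cells there were 24, 26, 2 and 5 Mzb1 UMIs. The Mll4SI ratio of -3.17 (-6.30 to -1.16) counted as past 2-fold but rests on 2 UMIs, and in cluster 5 a total of 6 control cells held all 20 Mzb1 UMIs.

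In single cells of cluster 5, Flt3, Ighm and Satb1 were found more often where Dntt was found. Among thinned cluster 5 cells of control, a Flt3 UMI was found in 64.5% of cells with a Dntt UMI and in 25.5% of those without. The pairs in the other libraries were 75.0% and 22.1%, 55.9% and 15.6%, and 57.6% and 22.0%. Ighm was found in 46.8% and 7.79% of control cells with and without a Dntt UMI, and then in 45.6% and 7.03%, 29.4% and 5.73%, and 45.5% and 8.33%. For Satb1 the shares were 62.9% and 22.3%, 70.6% and 30.5%, 58.8% and 25.3%, and 54.5% and 22.0%. The intervals of cells with and without Dntt did not overlap in any of the 4 libraries for Flt3, Ighm or Satb1. For Notch1, with 33.9% and 7.79%, 29.4% and 6.83%, 20.6% and 3.91%, and 18.2% and 8.93%, they overlapped in Mll3/4SI alone. Il7r, the interleukin-7 receptor of early lymphocytes, was detected in 5 of 62 control cells with Dntt and in 4 of 475 without. For Lax1, with 12.9% and 4.00% in control, the intervals overlapped in control, Mll4SI and Mll3/4SI, and Ccr9 was seen in 0 of 62 and 3 of 475 control cells.

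Some of the antibody counts of the same cells, which had no part in the choice of genes, separated them as well. The antibody to CD135, the Flt3 protein, was higher in cluster 5 cells with a Dntt UMI than in those without by 2.07, 1.89, 1.42 and 2.38 (difference of medians of the centred log2 count). The stem-cell antigen Sca1 differed by 0.91, 0.86, 0.36 and 0.77 and the interleukin-7 receptor CD127 by 0.70, 0.45, 0.42 and 0.55. The megakaryocyte antigen CD41 was lower by -2.12, -1.90, -2.58 and -1.90, the myeloid Fc receptors CD16_32 by -1.65, -1.40, -0.94 and -1.70, and Kit itself (CD117) by -1.02, -1.14, -0.23 and -0.75. Signs were the same in all 4 libraries for these antibodies. Not every antibody followed a lymphoid pattern. Over all HSC/MPP-like cells of control, Mll3SI and Mll4SI, the myeloid antigen CD11b was higher with Dntt, by 0.36, 0.24 and 0.51. The B-cell antigen B220 differed by 0.02, -0.11 and 0.21 in those libraries, without a common sign. In the same cells CD34 was higher with Dntt, by 0.62, 0.79 and 0.93, and CD150 was lower, by -0.16, -0.33 and -0.47. Median depth with and without Dntt in cluster 5 was 18296 and 18252 UMIs in control but 13132 and 17094 in Mll4SI.

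**Figure D5:**
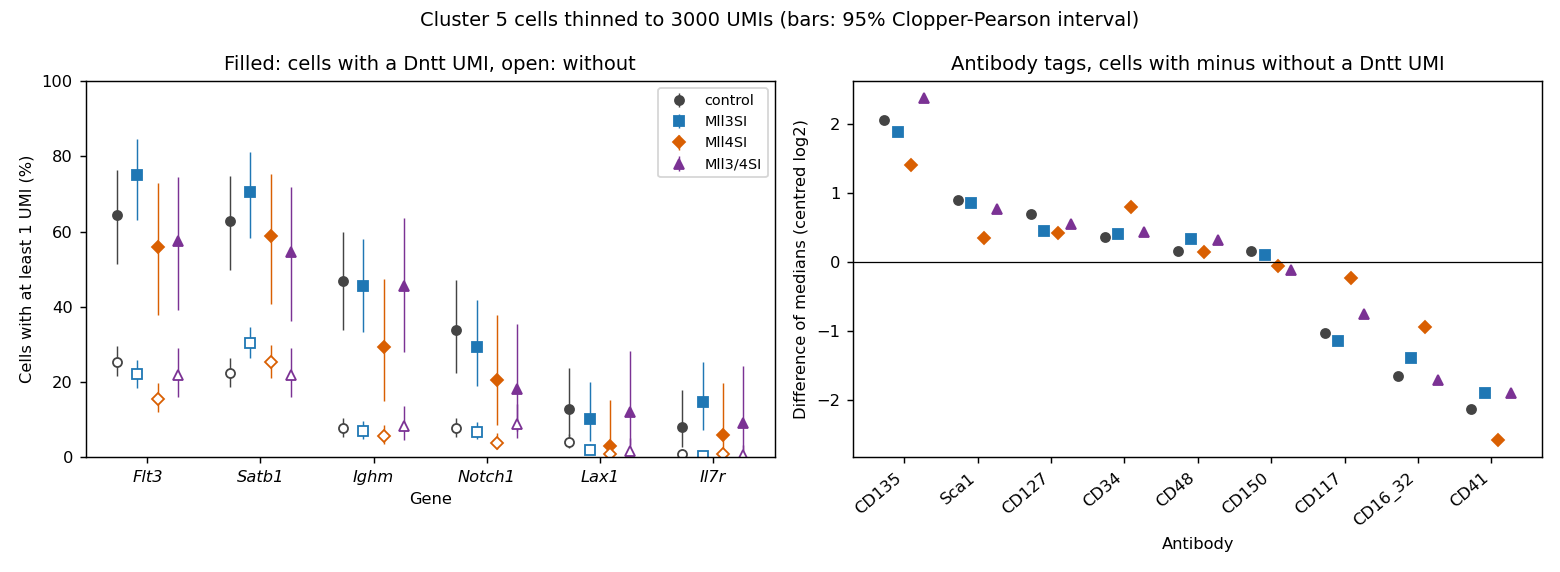
Cluster 5 cells thinned to 3000 UMIs. Left, percent of cells with at least 1 UMI of each gene among cells with (filled) and without (open) a Dntt UMI, with Clopper-Pearson intervals; right, difference in median centred log2 antibody count between these cells, 1 point per library. Flt3 is found in 55.9% to 75.0% of the cells with Dntt and in 15.6% to 25.5% of the others, and the CD135 antibody differs by 1.42 to 2.38.

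Related genes were followed in HSC/MPP-like cells by lists of the pathways around the 7 genes, in which a gene was tested at a mean of 1 CPM or more over the 4 libraries. Over all 12746 genes tested there, 0.761%, 2.88% and 1.58% were past 2-fold in either direction in Mll3SI, Mll4SI and Mll3/4SI. Of 17 early lymphoid regulators and receptors tested, only Il7r was past 2-fold in any library, at 5.93, 9.41, 1.64 and 8.40 CPM, and that was in Mll4SI (-1.85, -2.61 to -1.16). Of 11 genes tested from a mixed list of lymphocyte adaptors and related signalling genes, 2 were past 2-fold lower in Mll4SI: Grap2 (-2.15, -3.09 to -1.33) and Skap1 (-2.01, -2.95 to -1.17). Skap1 was also lower in Mll3/4SI, with 1 UMI against 75 (-4.85, -10.2 to -2.33). Both adaptors act in T-cell receptor signalling. The median log2 ratio of the adaptor list was -0.10, -0.40 and -0.05 in the 3 libraries, against 0.00, -0.01 and -0.05 over all genes. The 14 T/NK markers summed to 302, 261, 209 and 96.1 CPM in the same cells, and their part in the adaptor values was not tested. The sum was not particular to these cells, at 274, 239, 197 and 74.8 CPM in monocyte-like cells. The T-cell marker Cd3e had 0 UMIs in HSC/MPP-like cells of every library.

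The Notch pathway list held 21 tested genes, of which only Hes1, a direct Notch target, was past 2-fold, in Mll4SI (4 UMIs against 38, -2.83, -4.78 to -1.36). The list median was 0.01, 0.03 and -0.12. The immunoglobulin chain and B-cell receptor list held 15 genes, of which only 4 reached the level to be tested. Among these 4, the adaptor Blnk was higher in Mll3SI (80 UMIs against 34, 1.51, 0.92 to 2.14) and in Mll3/4SI (38 UMIs, 1.54, 0.83 to 2.25). Vpreb1, part of the surrogate light chain, was lower in Mll3/4SI (11 UMIs against 87, -1.60, -2.66 to -0.69). None of 12 recombination genes was past 2-fold in any library, and the pair farthest from control were Rag2, at 1.64, 3.07, 2.89 and 3.82 CPM, and Polm, at 1.23, 1.14, 0.625 and 1.37 CPM. Rag2 was above control in each of the 3 comparisons, at 0.90 (0.18 to 1.64), 0.82 (0.07 to 1.58) and 1.22 (0.38 to 2.05), on 28 control UMIs. With 1 CPM added, its Mll3/4SI value was 0.87, short of 2-fold. None of the 14 endoplasmic reticulum partners of Mzb1 was past 2-fold, with the widest ratios at 0.27, -0.11 and -0.31 for the chaperone cofactor Sdf2l1 and 0.19, -0.18 and -0.27 for the disulfide isomerase Pdia4.

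Across 22 library-by-class units of at least 50 cells in 6 classes, the genes whose log2(CPM + 1) was most alike were found among 10565 genes by Pearson's r. These units share libraries and depth, and r describes only the pattern over classes. For Dntt they were Apbb2 (0.96), Myl10 (0.96) and Tbxa2r (0.96), and for Lax1 Myl10 (0.97), Tbxa2r (0.97) and Gimap7 (0.97). For Mzb1 they were Vpreb2 (0.996), Pax5 (0.995) and Gm12158 (0.992), which all follow the B-lymphoid-like class. Satb1 was most like Elmo1 (0.91), Fnbp1 (0.89) and Gm32036 (0.89), Notch1 like Smim14 (0.96), Pkm (0.95) and Coro1a (0.94), and Ighm like Map3k1 (0.95), Tpm4 (0.92) and Gpr18 (0.92). Ccr9, with few UMIs, reached 0.82 with Gpbp1, 0.81 with Rnf34 and 0.79 with Asxl2.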

How the data were processed

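The authors deposited, per library, a matrix of UMI counts per gene and antibody, with Cell Ranger 7.1.0 and the mm10 build named in the submitters' processing notes and file headers. Counting settings are not given in the sources used here. Cells with at least 500 genes, 1000 gene UMIs and at most 10% mitochondrial UMIs were kept. A Scrublet-type score marked doublets, removing the highest 0.8% of cells per 1000 cells (409 to 1001 per library). Clusters came from 2000 variable genes without the 7 genes, the markers or the pathway genes, 30 principal components, 15 neighbours and Leiden at resolution 1 (scanpy 1.11.5, leidenalg 0.10.2, Python 3.11.15). A cluster was named from at least 3 fixed markers of 2-fold or more and a lead of 2. This naming rule and the 95% limit for library-specific clusters were set after clusters were seen. Thinning drew 3000 UMIs per cell without replacement. Antibody values were centred per cell over 13 surface antibodies. Sums, ratios and intervals were tested on simulated data. The 7 genes, markers and lists were chosen with earlier results of these data known. Named beside the 7 genes were pathway genes past 2-fold in HSC/MPP-like cells or, where a list had none, its 2 widest ratios, and the 3 genes most alike to each. Hashtag classes were set by thresholds of 132 and 334 UMIs. Annotation was GENCODE vM21. RefSeq windows were matched for 5 of the 7 genes.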

Additional observations from a re-analysis of the deposited data

Results flagged for a closer look

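Ighm lay on opposite sides of control in different cell classes of the Mll3/4SI library. With 1 CPM added to both levels, the log2 ratio was 0.63 in HSC/MPP-like cells, -1.82 in granulocyte-like cells and -1.71 in basophil/mast-like cells. With 1 library per group, the difference between the classes was not tested. The HSC/MPP-like value turned to -0.96 with classes taken from the nearest control cells and to -0.72 with library-specific clusters counted in, and the contrast between the classes ended there. In HSC/MPP-like cells the Ighm hashtag pair was 48.5 and 74.6 CPM in Mll3/4SI against 30.2 and 46.9 in control, and in granulocyte-like cells it was 6.95 and 8.92 against 30.035 and 30.2.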

How the results depend on the processing

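The count of the 7 genes past 2-fold in HSC/MPP-like cells was 3 in Mll4SI. It was 0 with 10 CPM added in place of 1 and 0 in cluster 16 alone, and it was 1 at Leiden resolution 2 and 1 among genes of at least 10 CPM. In Mll3/4SI the count was 0. It was 1 with the mean over cells, the strict cell filter, Hashtag2 cells or cluster 16 alone, and 3 with classes taken from the nearest control cells or with library-specific clusters counted in. In Mll3SI the count of 0 became 1 among cells with a Flt3 UMI, 1 in Hashtag1 cells and 2 in Hashtag2 cells. The cause of these changes was not tested. In Mll3/4SI HSC/MPP-like cells, Dntt (0.69) and Ighm (0.63) turned to -1.22 and -0.96 with classes of nearest control cells and to -0.81 and -0.72 with library-specific clusters counted in, and Dntt to -2.19 in cluster 16 alone. Ighm in Mll4SI turned from -0.62 to 0.13 in cluster 16 alone. Without doublet removal, Ighm in B-lymphoid-like cells turned from 0.12 to -0.81 in Mll3SI and from 0.12 to -2.10 in Mll4SI. The log2 ratio of Dntt in Mll4SI turned to 0.36 in cluster 16 alone, where 1 Mll4SI cell held 48 of the 124 Dntt UMIs. In monocyte-like cells, where it was -1.33, it became 0.0048 at Leiden resolution 0.5 and 0.16 with the strict filter. The Satb1 detection share in Mll3SI turned to a log2 ratio of -0.0153 without thinning. Lax1 in HSC/MPP-like Mll4SI cells was below control under all 17 alternatives, from -2.02 to -0.64, and Ighm in granulocyte-like Mll3/4SI cells under all 14, from -2.14 to -1.17. The alternatives by library-specific clusters and by single clusters were chosen after seeing the data. No paired analysis was possible because each group has 1 library, and no library could be left out for the same reason. Depth limits Ccr9 and Mzb1 in progenitors most.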

Other observations

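In control, Mll3SI and Mll3/4SI the cells removed as probable doublets held more Ighm than the kept cells, and in Mll4SI the levels were close. The removed cells stood at 331, 312, 49.4 and 243 CPM in the order control, Mll3SI, Mll4SI and Mll3/4SI, from 409, 594, 1001 and 411 cells. Kept cells held 51.1, 63.0, 49.2 and 20.4 CPM.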
